A study of Mus musculus with 4 samples.

Results

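Guanylate-binding proteins are large GTPases of the dynamin superfamily that interferons and microbial products induce in many cell types. They assemble on vacuoles that hold intracellular pathogens and on the surface of cytosolic bacteria, they open these compartments to other defence proteins, and they help start inflammasomes. Some of them carry a C-terminal CaaX box to which a prenyl lipid is attached. In the mouse the genes lie in 2 clusters, on chromosomes 3 and 5, and deletion of the cluster on chromosome 3 is known to impair resistance to Toxoplasma gondii.

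The genes examined here were the rows carrying the symbols Gbp1 to Gbp10, and 9 of these 10 symbols were found among the 30041 genes with a score in each sample. No row carries the symbol Gbp7. The row named Gbp6 (Entrez identifier 229900) is the gene that RefSeq now calls Gbp7, and it is called the Gbp6 row below. The row named Gbp1 (14468) is the gene now called Gbp2b. The gene now called Gbp6 appears under its older symbol Mpa2l (100702). Mpa2l, Gbp11 (634650) and the pseudogene Gm6243 (621605), now Gbp2-ps, are family rows outside the list, and Gm6243 was at 0 in all 4 samples. The family was chosen from results of the same contrast, cKO against control, so the scores and differences of the members are given as a description with no p-value.

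Splenic B cells of C57BL/6 mice were stimulated with LPS, the outer membrane glycolipid of Gram-negative bacteria that signals through Toll-like receptor 4, and analysed by RNA-seq in 2 control and 2 cKO samples. The cKO mice were Nfkbiz fl/Δ Mb1 cre/+ and lack IκB-ζ, a nuclear IκB family protein that regulates NF-κB target genes, in B cells. The labels call the other group only control, and the study's methods describe the parental mice without Cre as Nfkbiz fl/Δ, so such controls also carry a deleted allele in every cell. Mb1 is Cd79a, and its promoter drives Cre from early in the B lineage. No group is described as carrying Cre with intact Nfkbiz. An effect of the Cre genotype, also on Cd79a itself, therefore cannot be told apart from loss of IκB-ζ. The labels give 72 h and 20 mg/ml LPS, and the methods give day 3 and 20 μg/ml for the same kind of culture. Age and sex are not given, the labels carry a passage of 8-12 for all samples, and nothing states whether samples 1 and 2 of a group came from separate mice or cultures, so the spread between them may be technical. B cells were enriched by depletion of cells bearing CD43, CD4 or Ter-119.

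The score has no stated unit. Low scores multiplied by exon length fell mostly on multiples of a step, as reads per exon base and per library would, and the step corresponds to 17541333 to 19913333 reads per sample. Scores can therefore be read as levels per exon length, as an inference from the values. Nfkbiz, whose row covers all exons and not the deleted ones alone, had scores of 0.0241 and 0.0226 in control and 0.0127 and 0.0116 in cKO. All 7 B cell markers passed the filter used for testing, a score that reaches 0.005 in 1 sample or more, and their summed score ranged from 5.00 to 5.43 in control and from 4.80 to 4.98 in cKO, with Cd74 the largest part of it. The cKO scores lay wholly below the control scores for 4 of the 7 and wholly above for 1, where 30.1% and 28.1% of all 9727 genes past the filter were below and above. Cd79a, whose promoter drives Cre in the cKO mice, was at 58.3% of control and was called lower (log2 difference -0.78, limma adjusted p = 0.0294). The summed score of 14 myeloid markers was 0.185 to 0.219 in control and 0.236 to 0.237 in cKO, with S100a9 at 0 in all samples and both cKO scores above both control scores for 6 of 14. Itgam made up most of that sum and was at 100.5% of control, whereas the macrophage and monocyte genes Lyz2, Lyz1, Cd14 and Cd68 were at 256.4%, 274%, 202% and 162%. Others of the same list went the other way with overlap. Ly6c2, which passed the filter, was at 79.8%, and S100a8 and Csf3r, which did not, were at 78.2% and 94.9%. The median log2 difference of the 5 myeloid markers past the filter was 0.75, and 0 were called. For 9 T cell markers, of which 2 passed the filter, the sum was 0.0604 to 0.0707 in control and 0.0965 to 0.0989 in cKO. Lck and Cd2 made up most of that sum and were at 175% and 108% of control. Both cKO scores were above both control scores for 5 of the 9, Lck among them, and below for 0. Thy1 was at 0.00003 in both control samples and at 0.00069 and 0.00085 in cKO. Cd3e, a subunit of the T cell receptor complex, did not exceed 0.0002. For 8 NK cell markers the sum was 0.00085 to 0.00113 in both groups together, with Gzma at 0, and for 5 plasma cell markers it was 0.253 to 0.313 in control and 0.224 to 0.273 in cKO. Among these, Prdm1, which encodes the plasma cell factor Blimp-1, scored 0.00835 and 0.00458 in control and 0.00083 and 0.00075 in cKO and was called lower (log2 difference -2.82, SE 0.432, limma adjusted p = 0.0429). Igj, which encodes the immunoglobulin joining chain, was at 53.0% of control and Sdc1, which encodes the plasma cell surface protein CD138, at 174%, and neither was called. The score of Sdc1 is of RNA, whereas the study measured CD138 protein by flow cytometry and reported lower levels in LPS-stimulated cKO B cells. The part of these marker differences in the scores below was not tested. In such bulk samples fewer cells of a type and less RNA per cell cannot be told apart.

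RefSeq promoter windows on GRCm38.p6, running from 250 bases before to 50 bases after a transcription start, were used for 5 family rows, Gbp5, the Gbp6 row, Gbp3, Gbp1 and Gbp2. No entry was matched for Gbp8, Gbp9, Gbp4 and Gbp10, so the members on the 2 chromosomes were not compared. The sequences show letter matches to an element through which interferons are known to act on this family. Each gene had a window with a match to the core of the interferon-stimulated response element, spelled GAAANNGAA and searched on both strands, which 8.56% of all 32851 windows hold. The runs of 29 bases around 1 match in each gene, on the plus strand, carry the match in capitals, which is on the opposite strand in all 5 genes.
Gbp5: cttgtgtagtTTCAATTTCagtttagaga
Gbp6 row: tgtgtgcagtTTCAGTTTCagttctccat
Gbp3: cagtttcagtTTCTATTTCccagatccct
Gbp1: tacttctaatTTCACTTTCttctttatca
Gbp2: ctcttttagtTTCACTTTCactgtcttaa
In this order the runs lie at chr3:142496760-142496788, chr3:142530274-142530302, chr3:142559996-142560024, chr3:142594701-142594729 and chr3:142620595-142620623. The matches shown start at positions -164, -52, -38, -136 and -58 from the start of transcription, and Gbp3 has another, overlapping one at -44. A second window of Gbp3, at another start, holds none. The gamma-activated sequence, spelled TTCNNNGAA and searched on both strands, was found at -245 and -52 in Gbp5 and at -106 and -87 in the Gbp6 row, and 8.30% of all windows hold it. The NF-κB consensus was found only in Gbp5 among the 5 genes, at -77, and in 4.51% of all windows. These are matches of letters in these windows and not measured binding sites.

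On chromosome 3 the 5 member rows lie side by side on the plus strand of NCBIM37, the assembly also called mm9, from Gbp5 at 142159864 to the end of Gbp2 at 142300972. All 5 had lower scores in both cKO samples than in both control samples, from 10.4% of the control mean for Gbp1 to 35.4% for Gbp5. On chromosome 5 the 4 member rows lie on the minus strand from 105443172 to 105668552, and their cKO means were 68.2% of control for Gbp4, 78.7% for Gbp9, 84.6% for Gbp10 and 103% for Gbp8. Of the 9 members, 8 passed the filter and Gbp10 did not. Gbp1 and the Gbp6 row passed it only through the control samples. In a limma fit of log2(score + 0.0001), adjusted by Benjamini-Hochberg across the 9727 genes that passed, 5 members were called lower in cKO at an adjusted p under 0.05 and 0 were called higher (0 also at an unadjusted p under 0.05). Over all genes tested, 1.25% were called lower and 0.812% higher. These calls describe the values from which the family was chosen and are no independent test of it. The 5 called lower are the 5 rows on chromosome 3. For 8 of the 9 members, Gbp10 included, the higher cKO score was below the lower control score. Among the 8 members past the filter this held for all but Gbp8, where it held for 30.1% of all genes tested. No member was called without cKO replicate 1 or without cKO replicate 2, when 0 of the 9727 genes were called and 6 and 7 members had an unadjusted p under 0.05, or with no filter, when 7 members had. Without a variance trend only Gbp1 was called, with a filter above 0.05 only Gbp3 and Gbp2, the only members past that filter, and without control replicate 1 Gbp4 was called in addition.

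**Figure D1:**
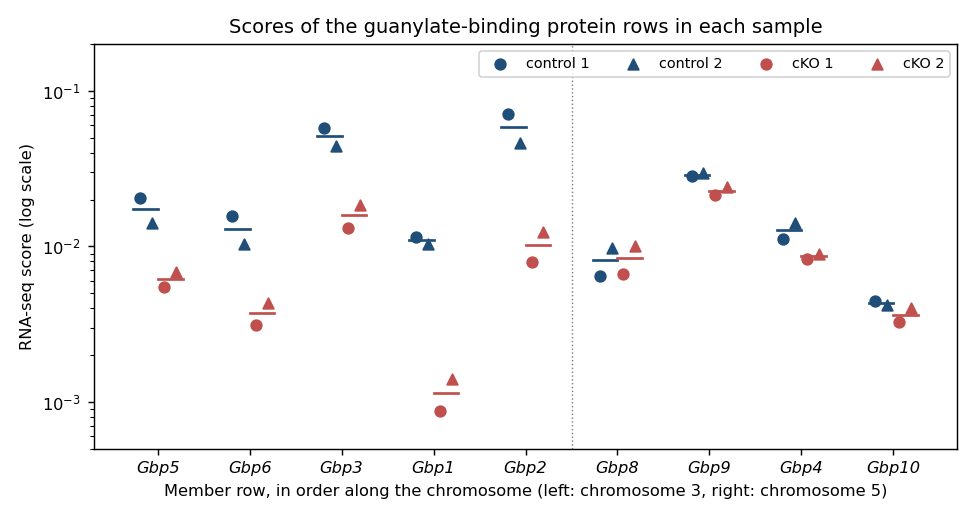
Scores of the 9 member rows on a log axis, in order along chromosome 3 and then chromosome 5, for control (blue) and cKO (red) samples 1 (circles) and 2 (triangles), with a line at each group mean. The groups separate widely for the 5 rows on chromosome 3, Gbp1 most of all, and overlap for Gbp8.

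On the log2 scale Gbp1 had the widest gap of the family. Its protein, a prenylated member that assembles on pathogen vacuoles, is encoded at 142257811 to 142282143. The score of Gbp1 was 0.0115 and 0.0104 in control and 0.00087 and 0.00141 in cKO. Thus both cKO scores were far below either control score, and the control mean was 9.61-fold the cKO mean, a log2 difference of -3.19 (SE 0.289). By the inferred step this amounts to some 582 and 537 reads in control against 49 and 70 in cKO, with counting errors of 14.3% and 12.0% on the latter. Gbp1 held place 5 from the lowest log2 difference among the 9727 genes. Its difference was -2.49 with a pseudocount of 0.001, which weighs on its low cKO scores.

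Gbp2, its neighbour at 142283566 to 142300972, encodes another prenylated member known for its recruitment to vacuoles of Toxoplasma. Gbp2 had the highest score of the family in control, 0.0712 and 0.0465, against 0.00799 and 0.0124 in cKO. Its lower control score was still well above its higher cKO score. The control mean was 5.77-fold the cKO mean, a log2 difference of -2.52 (SE 0.270), or about 3199 and 2143 reads against 400 and 548. By score Gbp2 stood at rank 1200 and 1861 of all 30041 genes in the control samples and at 7909 and 6198 in the cKO samples.

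Gbp3, at 142223016 to 142236173, belongs to the group of this cluster that coats pathogen vacuoles. Gbp3 scored 0.0579 and 0.0444 in control and 0.0131 and 0.0186 in cKO, a log2 difference of -1.69 (SE 0.202). It remained the second highest member in both groups, although its control mean was 3.23-fold its cKO mean. The Gbp6 row, now Gbp7, encodes a member known to act with NADPH oxidase in oxidative killing, and lies at 142193302 to 142213047. It scored 0.0156 and 0.0104 in control and 0.00314 and 0.00434 in cKO, a log2 difference of -1.76 (SE 0.248). Gbp5, a member linked to assembly of the NLRP3 inflammasome, scored 0.0205 and 0.0142 in control and 0.00545 and 0.00684 in cKO, a log2 difference of -1.47 (SE 0.204). Gbp5 thus had the smallest gap of the 5 rows on the log2 scale, and its lowest control score was still above its highest cKO score. In all 5 rows control 1 was above control 2 and cKO 2 was above cKO 1. The places of Gbp3, the Gbp6 row and Gbp5 among the 9727 genes, counted from the lowest difference, were 24, 22 and 34, and that of Gbp2 was 11.

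On chromosome 5 the gaps were smaller, and sample 2 was the higher one in control for Gbp8, Gbp9 and Gbp4. Gbp4, known to act on Irf7 in antiviral responses, lies at 105544786 to 105568605 and scored 0.0112 and 0.0142 in control and 0.00833 and 0.00898 in cKO. Its log2 difference was -0.54 (SE 0.143), and the groups did not overlap. Gbp9, at 105507413 to 105539311, scored 0.0284 and 0.0296 in control and 0.0215 and 0.0241 in cKO. Its control samples were close together, and its log2 difference was -0.35 (SE 0.0944). Neither row was called, and they held places 326 and 842 of 9727. Gbp8, at 105443172 to 105482580, scored 0.00645 and 0.0098 in control and 0.00666 and 0.0101 in cKO. In Gbp8 the second sample was higher in both groups and the groups overlapped, with a log2 difference of 0.04 (SE 0.269). Gbp10, at 105643926 to 105668552, scored 0.00445 and 0.00417 in control and 0.00327 and 0.00402 in cKO, always below the filter. Without the filter its log2 difference was -0.24 (SE 0.156), and its groups were separated only by the small gap between 0.00402 and 0.00417. Of the family rows outside the list on this chromosome, Mpa2l scored 0.00957 and 0.0112 in control and 0.00816 and 0.00922 in cKO, a log2 difference of -0.25 (SE 0.129). Gbp11 scored 0.00632 and 0.00739 in control and 0.00492 and 0.00478 in cKO, a log2 difference of -0.49 (SE 0.154). Neither was called.

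The neighbours of the clusters were also examined. Upstream of Gbp5, Pdlim5, which encodes a scaffold protein of the actin cytoskeleton, had scores of 0.00812 and 0.00881 in control and 0.00848 and 0.00841 in cKO, and its groups overlapped (log2 difference 0.00, SE 0.111, limma adjusted p = 0.993). On the other side the next genes after Gbp2 and its pseudogene are Ccbl2, now Kyat3, an aminotransferase of kynurenine metabolism, and Gtf2b, the general transcription factor TFIIB. Ccbl2 scored 0.00754 and 0.00639 in control and 0.00208 and 0.00361 in cKO. Its groups did not overlap, and its log2 difference of -1.31 (SE 0.294) was not past the threshold (limma adjusted p = 0.0965). Gtf2b, one gene further, scored 0.0249 and 0.0253 in control and 0.0225 and 0.0239 in cKO (log2 difference -0.12, SE 0.0845, limma adjusted p = 0.445). Beside the cluster on chromosome 5, only Zfp951 passed the filter among the neighbours that are not family rows, with a log2 difference of 0.23 (SE 0.139, limma adjusted p = 0.374).

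**Figure D2:**
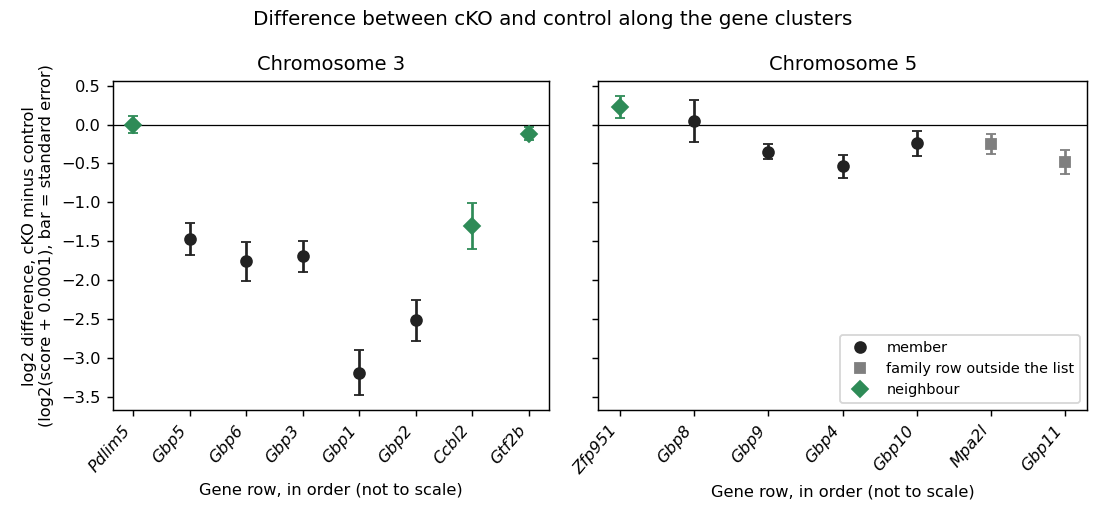
Log2 difference, cKO minus control, with its standard error for each family row and for the neighbours that passed the filter, in gene order along each cluster. The member rows on chromosome 3 lie between -3.19 and -1.47, Pdlim5 and Gtf2b lie at 0.00 and -0.12, Ccbl2 between Gbp2 and Gtf2b lies at -1.31, and the rows on chromosome 5 lie between -0.54 and 0.04. Gbp10 is from the fit with no filter.

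The makeup of the family differed between the groups. The summed score of the 9 members was 0.227 and 0.184 in control and 0.0703 and 0.0907 in cKO, so that the cKO mean was 39.2% ± 9.16 of the control mean (SD propagated from both groups, n = 2 each). The sum over the 5 rows on chromosome 3 was 24.5% of control and that over the 4 rows on chromosome 5 was 80.4%. Rows on chromosome 3 made up 77.8% and 68.5% of the family's summed score in control and 43.4% and 48.0% in cKO. The share of Gbp2 alone was 31.4% and 25.3% in control and 11.4% and 13.7% in cKO, whereas that of Gbp9 was 12.5% and 16.1% in control and 30.6% and 26.5% in cKO. In control the order of the mean scores was Gbp2, Gbp3, Gbp9, Gbp5, the Gbp6 row, Gbp4, Gbp1, Gbp8 and Gbp10. Gbp2 and Gbp3 were within each other's spread, as were the successive neighbours from Gbp5 to Gbp1. In cKO the order was Gbp9, Gbp3, Gbp2, Gbp4, Gbp8, Gbp5, the Gbp6 row, Gbp10 and Gbp1. Here the successive neighbours from Gbp2 to Gbp5 overlapped, as did the Gbp6 row and Gbp10, whereas Gbp9 stood above Gbp3 and Gbp1 below Gbp10 in both samples. These orders are of scores, which are taken as levels per exon length.

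**Figure D3:**
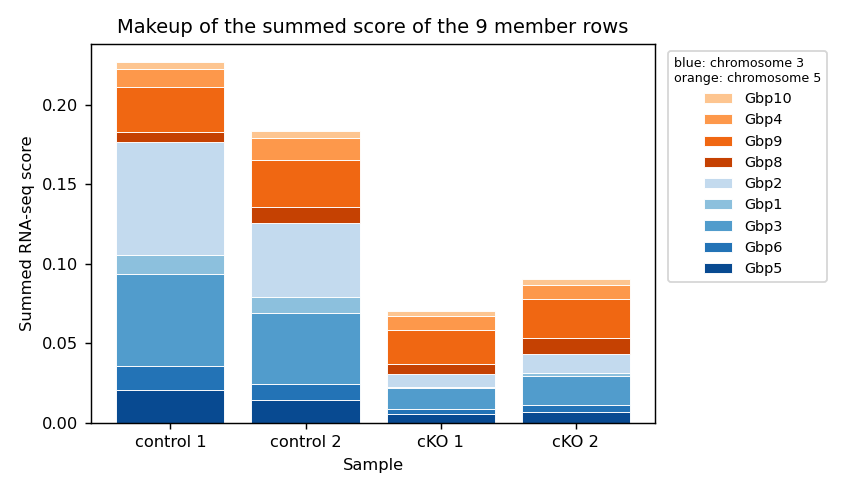
Summed score of the 9 member rows in each sample, stacked by gene, with rows on chromosome 3 in blue and on chromosome 5 in orange. The blue part is 77.8% and 68.5% of the bar in the control samples and 43.4% and 48.0% in the cKO samples, while the orange part ranges from 0.0398 to 0.0578 over the 4 samples.

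Because the reads were 38 bases long, the likeness of the family's transcripts was examined at that length. No family rows shared equal scores in all 4 samples, and in 1 sample, control 2, the Gbp6 row and Gbp1 had the same score, 0.0104. The rows on chromosome 3 were the easier ones to tell apart. Of the 38-base words in the GENCODE protein-coding transcripts of each gene, 0% for Gbp5, 3.02% for Gbp1, 3.15% for the Gbp6 row, 3.34% for Gbp2 and 5.05% for Gbp3 occur in another family row. Gbp1 and Gbp2 share 84 words and 76.2% of aligned residues, and the Gbp6 row and Gbp3 share 162 words and 73.1% of residues. On chromosome 5 the shares were 15.8% for Gbp9, 17.5% for Gbp4, 25.5% for Gbp8 and 83.7% for Gbp10. Gbp10 and Mpa2l are nearly the same gene at this length. They share 3441 words, 80.3% of those of Gbp10 and 79.8% of those of Mpa2l, and their proteins are identical at 97.7% of 611 aligned residues. How reads that match both places were counted is not given in the sources used here, so the scores of Gbp10 and Mpa2l are uncertain. The same limit holds, for fewer words, for the other rows on chromosome 5 and for their shares of the family's summed score. Counting all places in the genome, 86.4% of the words of Gbp10, 89.7% of those of Mpa2l and 55.0% of those of Gbp11 occur at 2 or more, against 3.08% for Gbp1 and 12.8% for Gbp5.

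**Figure D4:**
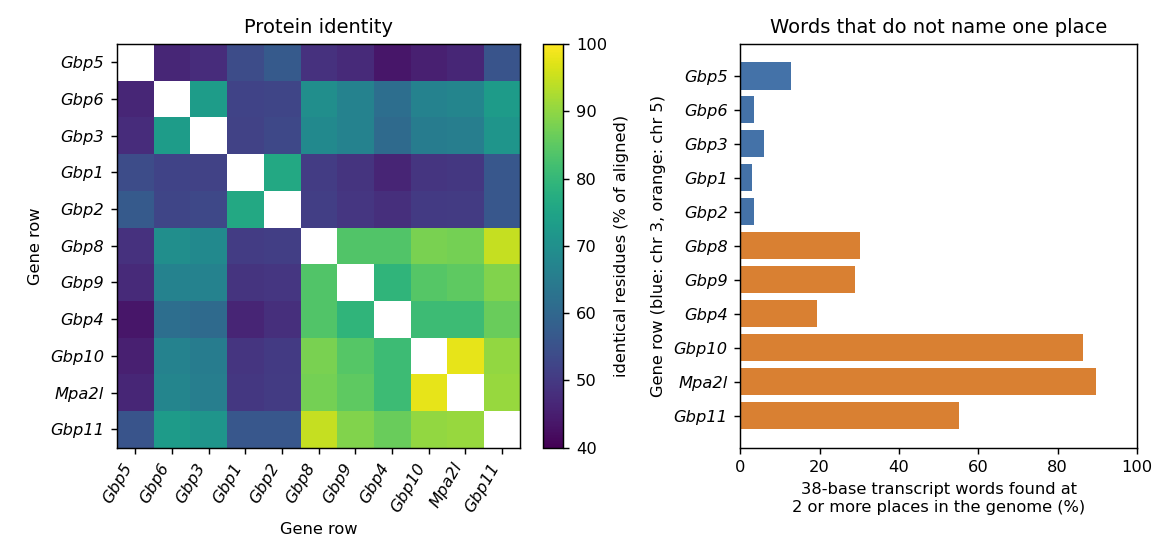
Left, identity between the proteins of 11 family rows (percent of aligned residues). Right, of the 38-base transcript words found in the genome, the percent found at 2 or more places, with rows on chromosome 3 in blue and on chromosome 5 in orange. The rows on chromosome 3 stay at 12.8% or less, and Gbp10 and Mpa2l reach 86.4% and 89.7%.

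To see whether other genes of the interferon and GTPase pathway moved in the same contrast, 75 genes in 6 lists were examined, of which 61 passed the filter. None was called lower and none higher by limma (at an unadjusted p under 0.05, 3 were lower and 7 higher), where 1.25% and 0.812% of all genes were called and 11.5% and 10.8% had an unadjusted p under 0.05. The median log2 difference of the 61 genes was 0.06, and that of all 9727 genes was -0.0098. The lists do not hold every interferon-induced gene, and Ifi44, which the study lists among genes lower in cKO, is in none of them.

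Among the ligands and receptors, 4 of 9 genes passed the filter, the 4 receptor chains. Ifnb1, Ifna4 and Ifna2 were at 0 in all samples, and Ifng was at 0.00005 in control 1 and at 0 in the others. The median log2 difference of the 4 chains was -0.02. The cKO scores lay wholly below the control scores for 1 of the 4 and wholly above for 2, against 30.1% and 28.1% of all genes. The 1 below was Ifngr2, a chain of the interferon-γ receptor, picked out after its values were seen. Its score was 0.0356 and 0.0349 in control and 0.0315 and 0.0294 in cKO, and 0 of the 4 chains were called.

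Of 19 JAK-STAT and IRF regulators, 16 passed the filter, with a median log2 difference of 0.10. Irf1, an interferon-induced factor that acts on many guanylate-binding protein genes, scored 0.0327 and 0.0248 in control and 0.0275 and 0.0252 in cKO, with overlap (log2 difference -0.11, limma adjusted p = 0.673). Irf9, the DNA-binding part of the type I interferon complex, also overlapped (log2 difference 0.03, limma adjusted p = 0.924). Irf8, a factor of B cells and myeloid cells, scored 0.228 and 0.224 in control and 0.246 and 0.258 in cKO (log2 difference 0.16, limma adjusted p = 0.283). Nlrc5, an interferon-induced activator of MHC class I genes, scored 0.0188 and 0.0173 in control and 0.0234 and 0.0217 in cKO (log2 difference 0.32, limma adjusted p = 0.142). The lowest log2 difference of the 16 was that of Usp18, picked out after its values were seen. It scored 0.0112 and 0.00405 in control and 0.0043 and 0.00369 in cKO, with overlap (log2 difference -0.75, SE 0.453, limma adjusted p = 0.377). The cKO scores lay wholly below the control scores for 1 of the 16 and wholly above for 7, against 30.1% and 28.1% of all genes.

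Of 15 other inducible or dynamin-type GTPases, 12 passed the filter, with a median log2 difference of -0.05, and the cKO scores lay below the control scores without overlap for 2, a smaller share than the 30.1% of all genes. These 2 were immunity-related GTPases of the same vacuole defence, Irgm1 with scores of 0.0498 and 0.0429 in control and 0.0381 and 0.0423 in cKO, and Ifi47 with 0.0403 and 0.0320 in control and 0.0286 and 0.0307 in cKO. Their log2 differences were -0.20 (limma adjusted p = 0.328) and -0.27 (limma adjusted p = 0.277). They were picked out here after their values were seen. Igtp, another GTPase of that group, scored 0.0181 and 0.0133 in control and 0.0165 and 0.0159 in cKO, with overlap. Mx1 and Mx2 were also picked out after their values were seen. Mx1 had the lowest log2 difference of the 12, -0.53 (SE 0.430, limma adjusted p = 0.495). It scored 0.00542 and 0.00245 in control and 0.00217 and 0.00289 in cKO, with overlap. Mx2 did not pass the filter, and its cKO scores of 0.00243 and 0.00277 lay below its control scores of 0.00354 and 0.00365. Both cKO scores were above both control scores for 1 of the 12, against 28.1% of all genes.

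All 12 genes of the ATG conjugation machinery, which helps load guanylate-binding proteins onto vacuoles, passed the filter, with a median log2 difference of 0.17. Both cKO scores were above both control scores for 10 of the 12, a larger share than the 28.1% of all genes. Of the 12, 0 were called (3 higher at an unadjusted p under 0.05). Of 9 inflammasome partners, 6 passed the filter. Casp4, the receptor of cytosolic LPS also called caspase-11, scored 0.0292 and 0.0382 in control and 0.0568 and 0.0558 in cKO. Its log2 difference of 0.75 (SE 0.137) was not past the threshold (limma adjusted p = 0.0624). Casp4 was called with a filter above 0.05 (limma adjusted p = 0.0426). It was not called with no filter (limma adjusted p = 0.237) or no variance trend (limma adjusted p = 0.103). Its log2 difference was 0.56 and 0.94 without control replicate 1 or 2, and 0.74 and 0.76 without cKO replicate 1 or 2. Aim2, a sensor of cytosolic DNA, overlapped between groups (log2 difference 0.13, limma adjusted p = 0.570).

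Of 11 genes of prenylation and CaaX processing, all passed the filter, with a median log2 difference of -0.10. Fdps, which makes the precursor of the prenyl lipids, scored 0.180 and 0.142 in control and 0.0597 and 0.0870 in cKO. Its log2 difference was -1.15 (SE 0.203), and it was not past the threshold (limma adjusted p = 0.0579). Fdps was called with a filter above 0.05 (limma adjusted p = 0.0318). It was not called with no filter (limma adjusted p = 0.241) or no variance trend (limma adjusted p = 0.0991). Its log2 difference was -0.98 and -1.32 without control replicate 1 or 2, and -0.88 and -1.42 without cKO replicate 1 or 2. Rabggtb, a subunit of the enzyme that prenylates Rab proteins, scored 0.0330 and 0.0319 in control and 0.0231 and 0.0233 in cKO. Its log2 difference of -0.48 (SE 0.0812) was not past the threshold (limma adjusted p = 0.0522). Nor was it with no filter (limma adjusted p = 0.204) or no variance trend (limma adjusted p = 0.0883). The log2 difference of Rabggtb was -0.46 and -0.50 without control replicate 1 or 2, and -0.47 and -0.49 without cKO replicate 1 or 2.

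**Figure D5:**
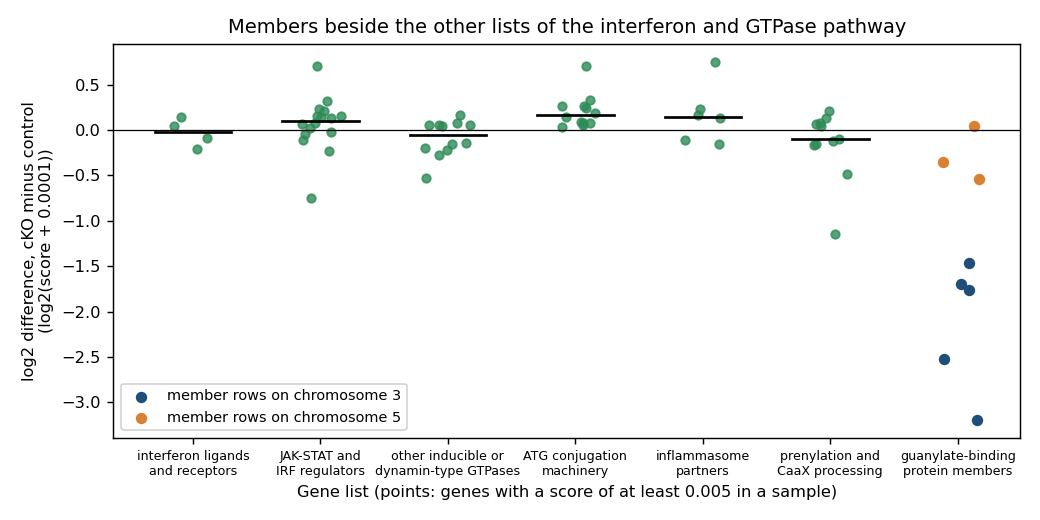
Log2 difference, cKO minus control, of each gene past the filter in the 6 pathway lists (green, with a line at the median) and of the member rows on chromosome 3 (blue) and chromosome 5 (orange). The list medians lie between -0.10 and 0.17, and the lowest point of the lists is Fdps at -1.15.

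Genes with a pattern like that of the members were looked for over the 4 samples. Scores were centred on the log2 scale, and the distance was the root mean square from the median profile of the members that passed the filter, which was 1.02, 0.53, -0.997 and -0.58 in control 1, control 2, cKO 1 and cKO 2. Of the members, Gbp5, Gbp3 and the Gbp6 row were nearest to it (0.0601, 0.0824 and 0.104), and Gbp1 (0.826) and Gbp8 (0.892) were farthest. The nearest other genes were Ccbp2, now Ackr2, a scavenging chemokine receptor (0.0493), Gimap7, a GTPase of lymphocytes (0.0985), Zbtb32, a transcriptional repressor of activated B cells (0.114), Chst10, a sulfotransferase (0.129), and Fgl2, a fibrinogen-like protein (0.141). Gimap7 scored 0.0364 and 0.0288 in control and 0.00954 and 0.0111 in cKO, a log2 difference of -1.65 (SE 0.142). These genes were picked for this pattern, which 4 samples define, so the likeness is a description.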

How the data were processed

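Total RNA of LPS-stimulated splenic B cells was made into poly(A) libraries and sequenced as reads of 38 bases. The reads were aligned by the authors to mm9 using TopHat (2.0 in the submitters' processing notes), limited to a Phred quality of 25 or more and cleared of rRNA and tRNA with BEDTools, and the authors deposited a score per gene, with the Entrez identifier and symbol. How reads became the score is not given in the sources used here. Inferred depth was 17541333 to 19913333 reads, from low scores (76.0 to 80.4% within 0.2 of a whole step), and covers counting error only.

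From the scores, genes with at least 0.005 in at least 1 sample (9727) entered a linear model of log2(score + 0.0001) in limma (version 3.58.1, R 4.3.3), whose moderated variances followed a trend with the mean. P-values were adjusted by Benjamini-Hochberg and called under 0.05. Log2 differences are on that scale, which understates those of low genes, while folds and percents of control are ratios of mean scores. An exact permutation test of 2 against 2 samples cannot go below a two-sided p of 0.33. Motifs and words were exact matches, and proteins were aligned globally with Biopython 1.88 in Python 3.11.15. Words and coordinates come from NCBIM37 with GENCODE, and current symbols from RefSeq.

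Genes named are the rows Gbp1 to Gbp10, other family rows, Nfkbiz, pathway genes past the threshold (none) and Irf1, Irf8, Irf9, Nlrc5, Fdps, Aim2 and Casp4, neighbours within 3 genes of a member, and the 5 genes nearest in pattern. Others named from the lists (Ifnb1, Ifna4, Ifna2, Ifng, Ifngr2, Igtp, Irgm1, Ifi47, Mx1, Mx2, Usp18, Rabggtb, Jak2, Map1lc3a) were picked afterwards. Ifi44 is named from the study. One further list gene that was to be named is not reported here. The members and lists were chosen with earlier results of these data known. Alternatives were another pseudocount, filter, scaling or variance model, the replicate number as a block, and leaving out each sample.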

Additional observations from a re-analysis of the deposited data

How the results depend on the processing

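The count of members called lower, 5 of 8 that passed the filter, is a description of values that chose the family. It was 2 with a filter above 0.05 (2 tested), 1 with no variance trend, 0 with no filter (7 at an unadjusted p under 0.05), and 0 to 6 when 1 sample was left out. It was 5, and the same genes, with either pseudocount, either scaling, and the replicate block. Without a cKO sample that group holds 1 sample, which is assumed to vary like the others. Over all genes, 122 lower and 79 higher became 0 and 0 of 21582 genes when none were filtered out (1538 and 1665 had an unadjusted p under 0.05), 22 and 11 with no variance trend, 180 and 177 with the replicate block, and 0 to 391 and 0 to 439 when 1 sample was left out. With a filter above 0.05, 88 were lower and 35 higher of 1933 tested. In the pathway lists, 0 lower and 0 higher became 1 and 1 with the replicate block (Fdps, limma adjusted p = 0.0128, and Casp4, limma adjusted p = 0.0228), 1 and 1 with a filter above 0.05, and 0 to 3 in each direction when 1 sample was left out (without control replicate 2 Fdps, Rabggtb and Usp18 lower, and Casp4, Jak2 and Map1lc3a higher). The neighbour Ccbl2 was called with the replicate block (limma adjusted p = 0.0486). Nothing in the labels says that a replicate number marks a shared culture, and deviations of same-numbered samples correlated at -0.145 (Spearman -0.291) across genes, so the crossed pairing was added after seeing the data. It gave 5 members lower, 230 genes lower and 212 higher, and 2 lower and 2 higher in the lists. The cause of these changes was not tested. The members' log2 differences are the same by construction under another filter, block or variance model. Otherwise that of Gbp1 ranged from -3.51 to -2.49 (the latter with a pseudocount of 0.001), that of Gbp2 from -2.83 to -2.20, that of Gbp5 from -1.73 to -1.21 and that of Gbp8 from -0.25 to 0.34. Without either cKO sample no gene passed the threshold, 161 were lower and 136 higher without control 1, 391 and 439 were without control 2, and the cKO scores of Gbp1 rest on about 49 and 70 reads.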
